A study of Mus musculus with 10 samples.

Results

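Igf1, Igf2, Igf1r, Igf2r, Igfbp2, Igfbp3, Igfbp4, Igfbp5, Igfbp6 and Igfbp7 are the insulin-like growth factor (IGF) genes described here: 2 secreted ligands, 2 cell-surface receptors and 6 binding proteins. They were chosen by name, as every non-control probe of the array whose gene name is one of these 10. The array held 16 such probes out of 55681, and all 10 genes had at least 1. Of these, 11 probes for 8 genes were bright enough to be kept for testing, out of 17455 probes for 13677 genes in all.

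The cells were C2C12, mouse myoblasts kept as a line, which fuse into myotubes when serum is withdrawn. Cells in growth medium with 10% fetal bovine serum were transfected by a lipid reagent with synthetic miR-142-3p (a microRNA mimic) or with a scrambled sequence, each at 150 nM, and RNA was taken after 72 hours. The transfection efficiency was given as about 60%. By that figure each RNA would also hold that of cells without the oligonucleotide, in both groups, but this was not tested. The labels list 6 mimic and 4 scramble samples. According to the scanner headers, however, only 5 arrays of a single slide were hybridised and every array was read on 2 days, so both scans of an array were averaged (n = 3 mimic arrays and n = 2 scramble arrays). Levels are given as normalised log2 signal, the log2 of the scanner's background-corrected intensity minus the 75th percentile of that scan. Levels of different probes are not comparable. A probe is said to be detected on a scan where the scanner software marked it as well above background. Adjusted p-values are from limma with Benjamini-Hochberg adjustment over all genes tested, and a gene was called below 0.05. Nothing in the files ties an array to its own culture. The p-values set a difference against the scatter of these 5 arrays, which limma moderates over all genes. Part of that scatter may be technical.

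IGF1 and IGF2 are secreted peptides that bind the receptor tyrosine kinase IGF1R, which signals through insulin receptor substrates, PI3K and AKT to growth, survival and protein synthesis. IGF2R, the cation-independent mannose 6-phosphate receptor, takes up IGF2 for degradation and does not signal as a kinase. The IGFBP proteins hold the ligands in the extracellular space, and proteases that cut them release the ligand. In cultured mouse myoblasts, IGF2 made by the cells themselves is known to promote differentiation.

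The transfected mimic is shown first, because its seed is the letters by which a microRNA finds its targets. The RefSeq sequence of the mouse mature form (GRCm38.p6, chr11:87756903-87756925, plus strand, 23 bases) has bases 2 to 8 in capitals.
mmu-miR-142a-3p: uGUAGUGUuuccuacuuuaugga
A transcript site that pairs with this seed reads ACACTAC. These letters occur in 144 of the 55681 probes (0.259%) and in 0 of the 16 probes of the IGF genes. Probes cover only short stretches of each transcript, so the count says nothing of the rest.

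The 2 genes of the family that were called were Igf2 and Igfbp2, and both fell with the mimic. The array holds a pair of probes for Igfbp2, and the one shown here lies at the end of its coding sequence (mm9, chr1:72898677-72898736, plus strand), with the in-frame stop codon in capitals.
Igfbp2 probe A_55_P2056729: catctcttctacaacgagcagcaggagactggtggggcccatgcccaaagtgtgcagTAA
RefSeq promoter windows of Igf2 and Igfbp2 are shown too, as these were the 2 genes called. Each window runs from 250 bases before to 50 bases after an annotated start. The E-box is a motif read by bHLH factors, the myogenic MYOD1 and myogenin among them. It was searched as CANNTG, which reads the same on both strands, and its matches are in capitals. These letters do not tell 1 bHLH factor from another.
Igf2 promoter window (GRCm38.p6, chr7:142666767-142667066, minus strand): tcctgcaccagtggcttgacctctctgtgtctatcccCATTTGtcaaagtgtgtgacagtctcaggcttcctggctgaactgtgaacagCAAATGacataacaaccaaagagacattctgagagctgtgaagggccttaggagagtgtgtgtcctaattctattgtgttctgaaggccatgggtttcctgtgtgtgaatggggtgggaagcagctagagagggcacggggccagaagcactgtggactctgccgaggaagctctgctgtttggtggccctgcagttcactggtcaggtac
Igfbp2 promoter window (GRCm38.p6, chr1:72824230-72824529, plus strand): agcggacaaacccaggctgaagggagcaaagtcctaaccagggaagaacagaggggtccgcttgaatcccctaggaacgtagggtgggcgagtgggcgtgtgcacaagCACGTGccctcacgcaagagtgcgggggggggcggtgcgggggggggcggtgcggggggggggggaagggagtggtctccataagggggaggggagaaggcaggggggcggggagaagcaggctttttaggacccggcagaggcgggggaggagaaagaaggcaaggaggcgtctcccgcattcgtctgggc
These are the most upstream of the 4 windows of Igf2 and of the 2 of Igfbp2. The Igf2 window shown holds 2 matches, and its other windows 1, 0 and 0. The Igfbp2 window shown holds 1 match and its other window 2. Of all 32851 promoter windows, 72.3% hold at least 1 match, and of the 14 windows of the 10 genes, 10 do. A match is only a run of letters and says nothing of binding.

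Across the family 2 of the 8 genes tested were called, both lower with the mimic, and 0 were higher. Of these 2, Igf2 passed the filter on dim probes through the scramble scans, so the count says nothing of the direction of the family. With only probes detected on all 10 scans, 6 genes were tested and 1, Igfbp2, was called lower. Over all 13677 genes, 1332 were called (9.74%), of which 802 were higher (5.86%) and 530 lower (3.88%). At an unadjusted p below 0.05 limma found 3455 genes. In 5 of the 8 genes the mimic and scramble arrays did not overlap, which was also so for 42.4% of all genes tested. The median difference of the 8 genes (mimic minus scramble) was −0.02 on the log2 scale, beside 0.09 over all genes tested. With so few genes these shares describe the family only.

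**Figure D1:**
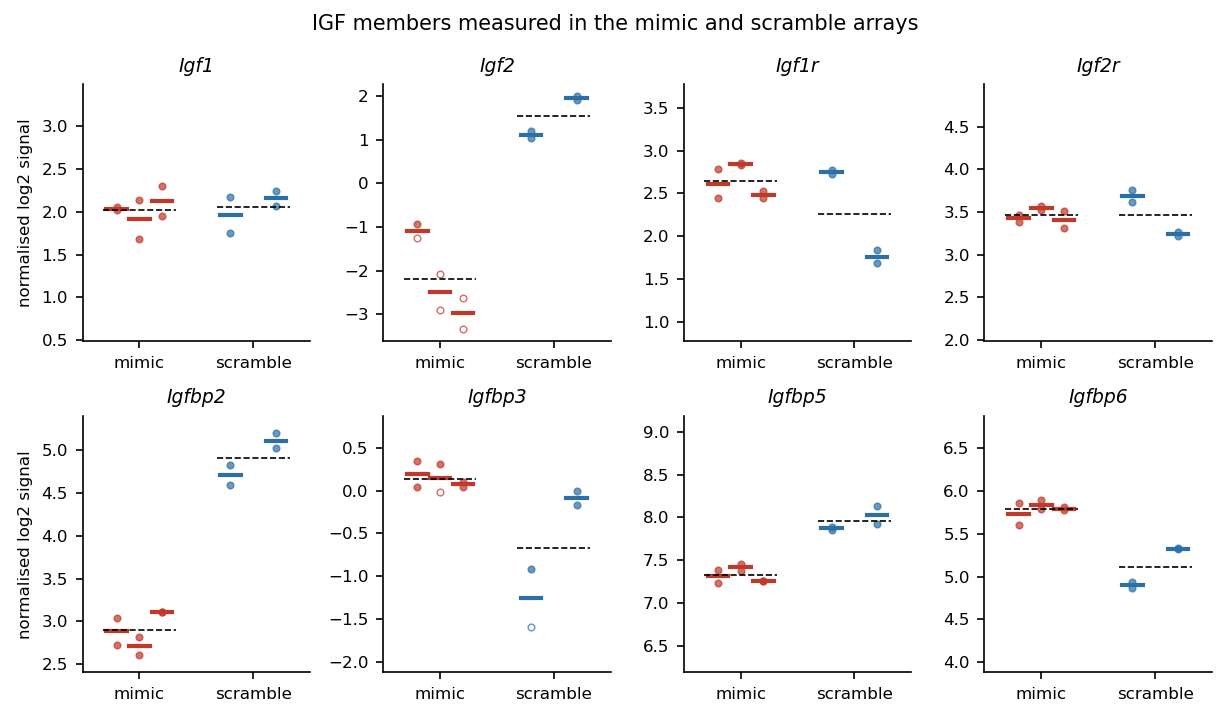
Normalised log2 signal (vertical axis) of the 8 tested IGF genes in mimic arrays (red, left) and scramble arrays (blue, right). Points are single scans, open where the probe was not detected, short bars are arrays and dashed lines are group means; the vertical axis spans at least 3 log2 units in each panel, and Igf2 and Igfbp2 show the widest gaps between groups.

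Of the ligands, Igf2 fell and Igf1 was not called. Igf2 had a normalised log2 signal of −1.09, −2.49 and −2.98 on the mimic arrays, against 1.12 and 1.96 on the scramble arrays. The groups lay far apart, with mimic array 1 nearer to the scramble arrays than the other mimic arrays were. Its mean was −2.19 ± 0.98 (SD, n = 3) with the mimic and 1.54 ± 0.59 (SD, n = 2) with the scramble, a difference of −3.73 (SE 0.52, 95% limits −4.91 to −2.54, limma adjusted p = 0.00286), or 13.2-fold lower. In bulk RNA such as this, fewer cells that make a transcript and less of it per cell cannot be told apart. The Igf2 probe lies on chromosome 7 at 149839661 to 149839720 (mm9, minus strand) and is a single spot. It was detected on 1 of 6 mimic scans and 4 of 4 scramble scans, so it passed the filter on dim probes through the scramble scans. With no filter the call held (limma adjusted p = 0.0158). The level left with the mimic was close to the limit of measurement, and the size of the fall depends on the background correction: with normexp correction the difference was −2.06 (limma adjusted p = 0.0066). With the authors' processed values the difference was −3.33 and the call was lost (limma adjusted p = 0.0534).

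The fall of Igf2 was seen on both scan days, at −3.67 on the first and −3.78 on the second, and in both rows of the slide, at −3.16 in the first and −4.45 in the second, where each group has 1 array. With the slide row as a block it was −3.71 (limma adjusted p = 0.0152), and in a fit over all scans with the scan day as a block and the array as a random block −3.73 (limma adjusted p = 0.00139). Both fits left the size of the fall within its standard error.

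H19, a noncoding RNA made from the same imprinted domain as Igf2, was lower too. It had 5.54, 5.85 and 5.55 on the mimic arrays, against 8.48 and 8.69 on the scramble arrays, a difference of −2.94 (7.65-fold lower, limma adjusted p = 0.000112). Its mimic arrays lay close together and well below both scramble arrays, and it was detected on every scan. The size depends on the probe: with the kept H19 probes averaged the difference was −4.10 (limma adjusted p = 6.4e-05).

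Igf1 is measured by 5 probes, which did not all show the same difference. The brightest, A_55_P2085979 on chromosome 10 at 87378456 to 87378515 (mm9, plus strand), had 2.04, 1.91 and 2.13 on the mimic arrays, against 1.97 and 2.16 on the scramble arrays. These values overlapped, with a difference of −0.04 (SE 0.20, 95% limits −0.49 to 0.42, limma adjusted p = 0.929). The other 4 probes lie downstream of it on the same chromosome and belong to another annotated transcript of the gene. Of these, A_55_P2031631, at 87393581 to 87393640, had −2.00, −1.94 and −1.72 on the mimic arrays, against −0.68 and −0.81 on the scramble arrays. It was detected on 0 of 6 mimic scans and 4 of 4 scramble scans, so it passed the filter only through the scramble scans and only a bound can be given: it was at least 1.42-fold lower with the mimic (limma adjusted p over all kept probes = 0.0106). For such a bound the mean of the bright group is divided by a floor for the dim group, which on each array is the dimmest signal of a detected probe, or the signal of the probe itself if that is larger.

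A_55_P2085974, at 87399581 to 87399640, had a difference of −1.33 that was not called (limma adjusted p = 0.193). It was detected on 2 of 6 mimic scans and 2 of 4 scramble scans. A_55_P2085984 was detected on 0 mimic scans and 2 scramble scans, and A_55_P2031636 on 0 scans of either group, so neither was bright enough to be tested.

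Where the kept Igf1 probes were averaged, the difference of the gene was −0.84 and was not called (limma adjusted p = 0.0995). The call of A_55_P2031631 was lost in 6 of 18 other settings, among them normexp correction (−0.40, limma adjusted p = 0.147), no filter on dim probes (limma adjusted p = 0.251) and without mimic array 1 (−1.09, limma adjusted p = 0.0621).

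**Figure D2:**
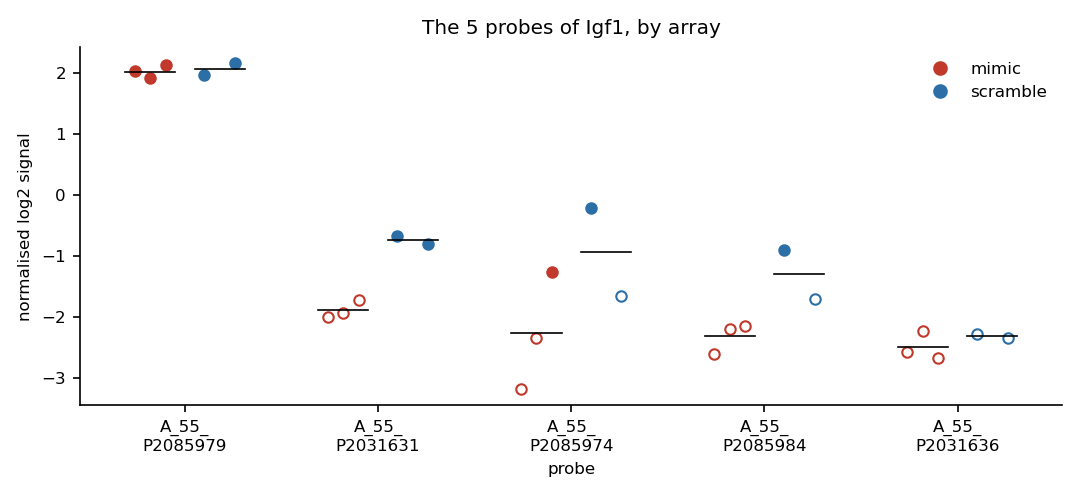
Normalised log2 signal of the 5 Igf1 probes (horizontal axis) on the 3 mimic arrays (red, left) and the 2 scramble arrays (blue, right), with group means as lines. Filled points were detected on both scans of the array and open points on 0. Levels are comparable within a probe only: A_55_P2085979 shows overlapping groups and A_55_P2031631 does not.

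Neither receptor was called. Igf1r, the signalling receptor, had 2.61, 2.85 and 2.48 on the mimic arrays, against 2.75 and 1.76 on the scramble arrays, and the groups overlapped, with the scramble arrays farther apart than the mimic arrays. The difference was 0.40 (SE 0.30, 95% limits −0.30 to 1.09, limma adjusted p = 0.452). It was 0.89 and called without scramble array 1 (limma adjusted p = 0.0295), and −0.10 without scramble array 2. It was −0.20 in the first row of the slide and 1.09 in the second. The Igf1r probe is on chromosome 7, at 75378461 to 75378520 (mm9, plus strand).

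Igf2r, which clears IGF2, is measured by 10 spots of 1 probe. It had 3.43, 3.55 and 3.41 on the mimic arrays, against 3.69 and 3.25 on the scramble arrays, and the mimic arrays lay between the scramble arrays. The difference was −0.01 (SE 0.21, 95% limits −0.50 to 0.49, limma adjusted p = 0.991), which leaves room for changes of either sign within those limits. Its probe lies on chromosome 17 at 12875253 to 12875263 (mm9, minus strand), the stretch given in the files.

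Igfbp2, a binding protein that carries IGF2 with higher affinity than IGF1, fell on both of its probes. The brighter one, A_66_P135391 on chromosome 1 at 72898813 to 72898872 (mm9, plus strand), had 2.89, 2.71 and 3.11 on the mimic arrays, against 4.71 and 5.11 on the scramble arrays. Every mimic array lay well below both scramble arrays. The mean was 2.90 ± 0.20 (SD, n = 3) with the mimic and 4.91 ± 0.28 (SD, n = 2) with the scramble, a difference of −2.01 (SE 0.23, 95% limits −2.53 to −1.49, limma adjusted p = 0.000897), or 4.03-fold lower.

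The probe whose sequence is printed above gave 1.96, 1.90 and 2.11 on the mimic arrays, against 3.85 and 4.33 on the scramble arrays. It was 4.29-fold lower, a difference of −2.10 (limma adjusted p over all kept probes = 0.000708). Both probes were detected on every scan. The fall of A_66_P135391 was past the threshold in all 19 other settings, between −2.21 and −1.81, and was −1.71 in the first row of the slide and −2.40 in the second. With the slide row as a block it was −2.01 (limma adjusted p = 0.00557).

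Igfbp5, a binding protein that myoblasts secrete, was lower on every mimic array but did not pass the threshold. It had 7.31, 7.42 and 7.26 on the mimic arrays, against 7.87 and 8.03 on the scramble arrays. The groups did not overlap, and the difference was −0.63 (SE 0.19, 1.54-fold, limma adjusted p = 0.0851). In 6 of 19 other settings it was past the threshold, for example with the 75th percentile taken over probes detected on all 10 scans (−0.76, limma adjusted p = 0.0489) and without scramble array 1 (−0.70, limma adjusted p = 0.0427). The Igfbp5 probe is on chromosome 1, at 72904829 to 72904888 (mm9, minus strand).

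Igfbp6, a binding protein with a marked preference for IGF2, was higher on every mimic array, again short of the threshold. It had 5.73, 5.84 and 5.80 on the mimic arrays, against 4.90 and 5.33 on the scramble arrays. The difference was 0.68 (SE 0.21, 1.60-fold, limma adjusted p = 0.0875), and it was past the threshold in 4 of 19 other settings, among them without scramble array 2 (0.89, limma adjusted p = 0.045). The Igfbp6 probe is on chromosome 15, at 101979852 to 101979911 (mm9, plus strand).

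Igfbp3, the main IGF carrier of blood, had 0.19, 0.14 and 0.08 on the mimic arrays, against −1.26 and −0.08 on the scramble arrays. The mimic arrays agreed closely and scramble array 1 lay far below the rest. The difference was 0.81 (SE 0.32, limma adjusted p = 0.169), and its size rests on the scramble arrays: it was 0.22 without scramble array 1 (limma adjusted p = 0.457) and 1.40 and called without scramble array 2 (limma adjusted p = 0.00679). With normexp correction it was 0.37 (limma adjusted p = 0.275). The probe, on chromosome 11 at 7106594 to 7106653 (mm9, minus strand), was detected on 5 of 6 mimic scans and 3 of 4 scramble scans. The other Igfbp3 probe, and the only probes of Igfbp4 and Igfbp7, were not detected on any scan, so no difference was tested for them. The Igfbp4 probe is on chromosome 11, at 98913334 to 98913393 (plus strand), and the Igfbp7 probe on chromosome 5, at 77778271 to 77778330 (minus strand), both in mm9 coordinates.

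**Figure D3:**
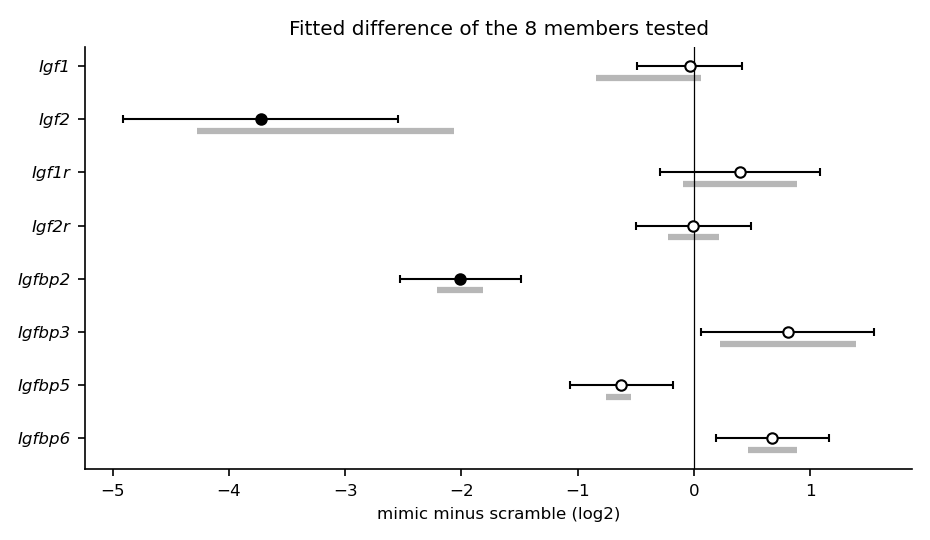
Difference between mimic and scramble (mimic minus scramble, log2) of the 8 tested IGF genes, with 95% limits from limma; filled points were called at an adjusted p below 0.05. Grey bars give the range over the alternative settings. Igf2 at −3.73 and Igfbp2 at −2.01 lie apart from 0, and the limits of Igf1, Igf1r and Igf2r span 0.

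Genes with the array profile most like each of the 3 IGF genes of largest difference were found by Pearson correlation over the 5 arrays. For Igf2 and Igfbp2 this description largely reflects the gap between the groups, and for Igfbp3 the low scramble array 1. For Igf2 they were Sik1 (0.995), Prpf38b (0.994) and Cse1l (0.993). They differed between the groups by −1.35, −0.40 and −0.60, in this order. Only Sik1 was called (limma adjusted p = 0.0179). For Igfbp2 they included Iffo1 and Rab40b (0.999 each), which differed by −2.52 and −1.54 and were called. For Igfbp3 they were a probe named in the files only by its position on chromosome 2 (0.999), Bloc1s4 (0.998) and Tstd3 (0.998). These 3 differed between the groups by 0.36, 0.20 and 0.72, in this order, and were not called. Of the genes tested, 7 reached 0.99 with Igf2, 60 with Igfbp2 and 16 with Igfbp3.

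Around the family, other genes of the IGF pathway were counted from 5 lists. A list of 9 genes held other ligands, carriers and mRNA-binding proteins of the system, and also H19, a noncoding RNA that is none of these. Of the 9, 3 were tested, 1 was lower (H19, given above) and 0 were higher. The other 2 were not called. Igf2bp2, which binds Igf2 mRNA, differed by −0.67 (limma adjusted p = 0.0665), and was past the threshold in 6 of 19 other settings. Ins2 differed by −0.41 (limma adjusted p = 0.427).

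Among the proteases that cut IGFBP proteins and their inhibitors, 6 of 11 were tested, 3 were higher and 0 lower. Of these 3, Pappa and Pappa2 passed the filter on dim probes only through the mimic scans, so the count says nothing of the direction of the list. Htra1, a secreted serine protease that cleaves IGFBP proteins, had 7.08, 7.49 and 7.30 on the mimic arrays, against 6.09 and 5.72 on the scramble arrays. It rose 2.61-fold (limma adjusted p = 0.00699). Pappa and Pappa2, metalloproteases that cleave IGFBP proteins, were each detected on 4 of 6 mimic scans and on 0 of 4 scramble scans. They were at least 1.13-fold and at least 1.11-fold higher (limma adjusted p = 0.00597 for Pappa and 0.00367 for Pappa2). The Pappa call was lost in 4 of 18 other settings and the Pappa2 call in 5. Both were lost with no filter on dim probes (limma adjusted p = 0.108 for Pappa and 0.0831 for Pappa2), with normexp correction (0.13 and 0.0786), and with the scan day as a block and the array as a random block (0.0514 and 0.229). Pappa2 differed by 0.51 on the first scan day and by 2.28 on the second.

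Of 17 insulin receptor and receptor-proximal adaptor genes, 13 were tested, 1 was higher and 3 were lower, with a median difference of −0.34. Sh2b2 and Sh2b1, adaptors that bind the activated insulin and IGF1 receptors, fell 2.91-fold (limma adjusted p = 0.00175) and 2.61-fold (limma adjusted p = 0.00336). Sh2b1 had 2.40, 2.49 and 2.40 on the mimic arrays, against 3.69 and 3.94 on the scramble arrays, with no overlap. Sh2b2 was detected on 2 of 6 mimic scans and 4 of 4 scramble scans. It passed the filter on dim probes through the scramble scans, so the count says nothing of the direction of the list. With normexp correction the difference of Sh2b2 was −0.74 in place of −1.54 (limma adjusted p = 0.0204). Ptpn1, a phosphatase that switches the insulin receptor off, fell 2.31-fold (limma adjusted p = 0.0487), and Socs3, a feedback inhibitor that blocks insulin receptor substrates, rose 2.13-fold (limma adjusted p = 0.0306). The Ptpn1 call was lost in 13 of 18 and the Socs3 call in 10 of 19 other settings, including the slide row as a block (limma adjusted p = 0.108 for Ptpn1 and 0.0764 for Socs3). Both were lost without mimic array 1, 2 or 3 or scramble array 2 (limma adjusted p of 0.07 to 0.176 for Ptpn1 and 0.0669 to 0.11 for Socs3). Of the substrates themselves, Irs1 differed by 0.83 (limma adjusted p = 0.113) and Irs2 by 0.58 (limma adjusted p = 0.239), and Insr, the receptor gene, by −0.62 (limma adjusted p = 0.211). None of these 3 passed the threshold.

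Of 22 genes of PI3K, AKT and mTOR signalling, 19 were tested, 1 was higher and 1 lower, with a median difference of −0.02. Pik3r3, a regulatory subunit of PI3K, fell 2.16-fold (limma adjusted p = 0.0134). Pik3cb, a catalytic subunit of PI3K, was detected on 4 of 6 mimic scans and 0 of 4 scramble scans, so it passed the filter only through the mimic scans. It was at least 1.18-fold higher (limma adjusted p = 0.03), and the call was lost with no filter (limma adjusted p = 0.202). The other 17 tested, Akt1, Akt2 and Mtor among them, were not called. The Pik3cb call was lost in 8 of 18 and the Pik3r3 call in 4 of 19 other settings. Pik3cb was lost without mimic array 1, 2 or 3 or scramble array 2 (limma adjusted p of 0.0647 to 0.11) and Pik3r3 without mimic array 1 or 3 (0.072 and 0.0542).

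Among FOXO factors and atrophy targets, which AKT signalling restrains, 6 of 9 were tested, 0 were higher and 2 lower, with a median difference of −0.15. Trim63, a muscle ubiquitin ligase, had −2.46, −1.81 and −2.03 on the mimic arrays, against 0.65 and 0.92 on the scramble arrays. It fell 7.39-fold (limma adjusted p = 0.000232) and was detected on 1 of 6 mimic scans and 4 of 4 scramble scans. Trim63 thus passed the filter on dim probes through the scramble scans, so the count says nothing of the direction of the list. With normexp correction the difference of Trim63 was −1.29 in place of −2.89, and it was still called (limma adjusted p = 0.00194). Foxo6 fell 2.62-fold (limma adjusted p = 0.00543), while Fbxo32, the other classical atrophy ligase, differed by 0.08 (limma adjusted p = 0.896). With no filter on dim probes, which raised the genes tested to 34607, the calls of Htra1, Sh2b1, Sh2b2 and Foxo6 were lost (limma adjusted p of 0.108, 0.0825, 0.0506 and 0.0955, in this order).

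**Figure D4:**
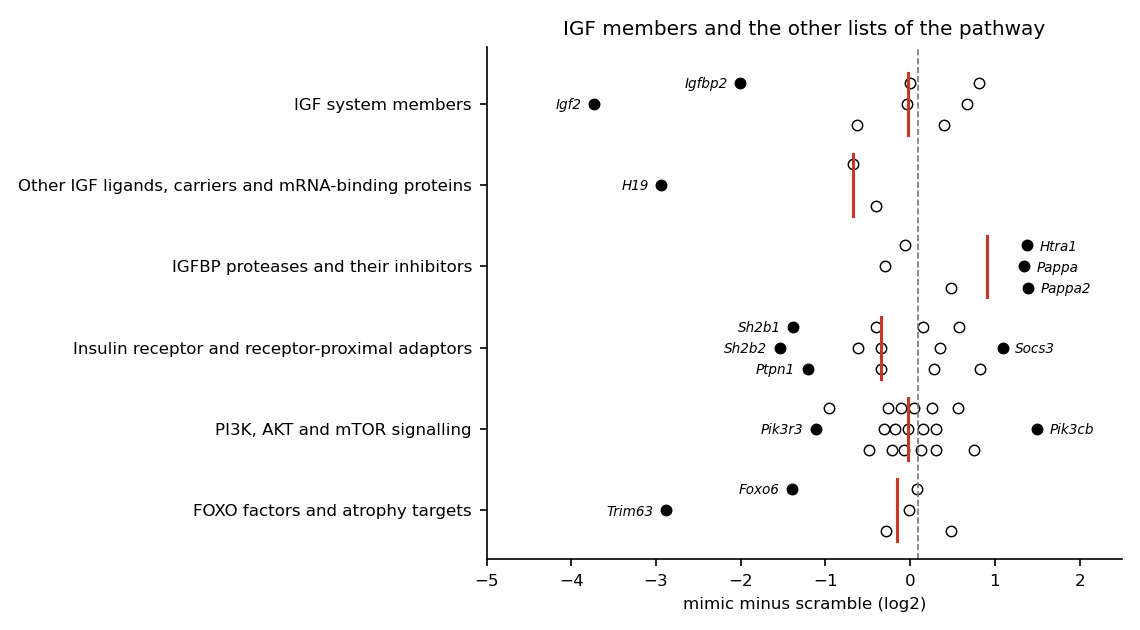
Difference between mimic and scramble (mimic minus scramble, log2) of each tested gene in the IGF family and in 5 further lists of the pathway. Filled, named points were called at an adjusted p below 0.05 (limma), red lines are list medians and the dashed line is the median over all genes (0.09). Igf2, H19, Trim63 and Igfbp2 lie farthest to the left, and Htra1, Pappa, Pappa2 and Pik3cb lie on the right. Pappa, Pappa2 and Pik3cb passed the filter only through the mimic scans, and Igf2, Trim63 and Sh2b2 through the scramble scans.

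Markers of muscle cells moved with these changes. Of the 8 myoblast identity markers tested 6 were lower and 0 higher, among them Myod1 (9.51-fold), Cdh15 (3.94-fold) and Six4 (2.34-fold). Ncam1 and Vcam1 differed by 0.25 and 0.23 and were not called. The summed linear level of the list, in units of each scan's 75th percentile, was 232 to 246 on mimic arrays, against 403 to 454 on scramble arrays. Such a sum leans on the brightest probes, here most on Itga7 (1.68-fold lower). Of the 11 myotube markers tested 9 were lower and 0 higher, among them Myog (135-fold), Actc1 (41.4-fold) and Tnnc1 (35.2-fold, detected on 1 of 6 mimic scans), with a summed level of 30.7 to 38.2 on mimic arrays, against 590 to 602 on scramble arrays. Of the markers that define the labelled cell type, Myod1 and Cdh15 were detected on every scan, whereas Pax7 was not detected on any. Myf5 was detected on too few scans to be tested. The part of differentiation state in the falls of Igf2, H19 and Igfbp2 was not tested.

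Among markers of other cell types, the fibroblast, epithelial and leukocyte sums were higher on every mimic array than on either scramble array. Leukocyte markers summed to 18.3 to 20.6 on mimic arrays, against 17.3 to 17.6 on scramble arrays, with 0 of 3 tested called (limma). Of this list, Itgam and Csf1r were detected on every scan, and Ptprc, Lyz2 and Tyrobp were not detected on any scan. Endothelial markers summed to 3.39 to 4.26 on mimic arrays, against 2.81 to 3.54 on scramble arrays, and 0 of 5 adipocyte markers were detected on any scan. Epithelial markers summed to 13.3 to 13.8 on mimic arrays, against 3.36 to 4.01 on scramble arrays, through Krt19 alone (4.15-fold higher), as Epcam, Cdh1, Krt8 and Krt18 were not detected on any scan. Fibroblast markers summed to 332 to 373 on mimic arrays, against 253 to 318 on scramble arrays, with 1 of 5 tested called (Lum, 5.72-fold higher). The fibroblast sum leans most on Dcn and Col1a2, which differed by 0.82 (limma adjusted p = 0.0727) and 0.02 and were not called. Col1a1 and Pdgfra differed by −0.46 and −0.14 and were not called either. The part of these cell types in the differences above was not tested.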

How the data were processed

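Labelling used 150 ng RNA and Cy3 in 1 colour, per the labels' protocols. The deposited scanner files hold linear intensity values in mm9 coordinates. Their headers name Feature Extraction 12.0.0.7, the submitters' processing notes 10.7.3.1. The deposited series matrix holds the authors' own processed intensity values, whose scaling between arrays no source used here gives, and it served as an alternative. Outlier and control spots were left out, log2 was taken of the processed signal, and the 75th percentile of the scan was subtracted. A probe was kept if at least 0.5 of its spots were well above background on at least 4 of 10 scans, and the brightest kept probe stood for its gene. In a scan 25.4% to 34.6% of 59305 non-control spots were that bright, and the number of arrays limits the precision. RefSeq tables (GRCm38.p6) updated gene names: 28026 probes matched through their accession, 3418 through a symbol and 295 through a synonym. The comparison was fitted in R 4.3.3 with limma 3.58.1 (lmFit, then eBayes), which had 3 residual degrees of freedom and a prior worth 5.26. The code was tested on simulated data with noise of the size of these arrays. Changes were put into a smaller share of the genes than the 9.74% called here, and the share recovered depends on this. In that setting the code called 0.4% of 1.5-fold, 13.4% of 2-fold and 72% of 4-fold changes. A gene not called may therefore still differ.

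The 10 genes, the lists and the tests were chosen with earlier results of these data known. Named are the 10 genes, up to 5 called genes of each pathway list in order of p, the 3 genes most correlated with each of the 3 genes of largest difference, and up to 3 called muscle markers a list; 1 of the correlated genes is not reported here. Other genes given with values were chosen after these were seen. They were Igf2bp2, Ins2, Irs1, Irs2, Insr, Fbxo32, Itga7, Ncam1, Vcam1, Krt19, Lum, Dcn, Col1a2, Col1a1 and Pdgfra. Alternatives changed the scaling, background correction, filter, probe choice, unit of replication, scan day, values used and arrays left out; the slide row as a block was added after seeing the data. All 4 scramble titles, and no mimic title, are marked as a re-analysis, which the labels do not explain.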

Additional observations from a re-analysis of the deposited data

How the results depend on the processing

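The fall of Igfbp2 was called in all 19 other settings, and that of Igf2 in 17 of 18; no IGF gene that was called changed direction in any setting that measured it. All genes called numbered 1332, and 761 with scaling to the scan median, 407 with no filter on dim probes (34607 genes tested), 616 with the authors' processed values, 810 with the slide row as a block, and 4154 with all 10 scans as samples, which counts rescans as replicates. Leaving out 1 array gave 641 to 3671, the lowest without mimic array 1 and the highest without scramble array 1. IGF genes called lower numbered 2, and 1 under a filter that kept only probes measured above background on each of the 10 scans, where Igf2 was not kept, and 1 with the authors' processed values. They numbered 3, with Igfbp5, in 6 settings: scaling with the percentile of probes detected on every scan, normexp correction, all 10 scans as samples, the replicate block, the scan day and array blocks, and without scramble array 1. IGF genes called higher numbered 0, and 2 with all 10 scans as samples, 1 with the scan day as a block and the array as a random block, and 0 to 2 when 1 array was left out. Scaling with the percentile of probes detected on every scan gave 674 higher and 664 lower genes, against 802 and 530, and moved the median of all genes to −0.04 from 0.09. Igf2r and Igf1, near 0, took either sign across settings, and Igf1r was below 0 in 1. The replicate numbers of the titles did not pair the samples (r of 0.19, −0.05, −0.28 and 0.13 between same-numbered scans). A replicate block on them, which also counts all 10 scans as samples, called 2336 genes, beside 4154 with the scans alone, with 1 IGF gene higher (Igfbp6) and 3 lower. The exact permutation alternative for the calls could call nothing, since 3 arrays against 2 cannot go below 0.2. The cause of these shifts was not tested beyond the fewer arrays or other probes that a setting uses. Signal over background limits Igf2, Igfbp3 and the dim Igf1 probes.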
